A study of Mus musculus with 12 samples.

Results

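The genes described here encode the core proteins of the spliceosome. They are the protein-coding genes whose symbols begin with Snrp, Sf3a, Sf3b, Lsm followed by a number, Prpf followed by a number, or U2af. Prpf4b, which encodes a protein kinase, was left out. This name rule used no measured value, but it was chosen with earlier results of these data known. It found 49 genes among the 34513 genes counted in the series, of which 19024 were protein-coding. All 49 were followed by RNA sequencing in 12 libraries of cultured mouse cells.

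The libraries came from 3 cell lines. Melan-A (MelanA in the labels) is a nontumorigenic mouse melanocyte line, B16F0 is a tumorigenic mouse melanoma line, and B16F10 is a metastatic melanoma line. Each line was sequenced untreated and after treatment with SX-682, a small-molecule antagonist of the chemokine receptors CXCR1 and CXCR2. This gave 6 groups of 2 libraries. The dose and duration of SX-682 for these cultures are not given in the sources used here, the untreated cultures are listed as having no treatment, and the labels do not say whether the 2 libraries of a group came from separate cultures. The p-values therefore measure the spread between libraries, which may be technical.

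The spliceosome removes introns from pre-mRNA. It is built from small nuclear ribonucleoproteins (snRNPs), each a small nuclear RNA held in a ring of Sm or LSm proteins and joined by proteins of its own. The U1 snRNP recognises the 5′ splice site, U2AF and the SF3A and SF3B complexes bring the U2 snRNP to the 3′ end of the intron, and the U4/U6.U5 tri-snRNP, which carries most PRPF proteins, then joins and is remodelled into the catalytic machine. These proteins are made in every dividing cell.

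The 12 libraries held 48876982 to 85322092 counts, and 3 counts, taken as the detection floor, corresponded to 0.0330 to 0.0623 CPM (counts scaled to each library’s size, adjusted by the trimmed mean of M-values, TMM). Intervals and floors of this kind cover counting error only. Of the 7 melanocyte-lineage markers (Mitf, Sox10, Tyr, Tyrp1, Dct, Pmel and Mlana), all exceeded the floor in every group. Their summed level was 1344 to 1374 CPM in untreated Melan-A and 1346 to 1355 CPM with SX-682, 18575 to 18660 CPM in untreated B16F0 and 15766 to 15954 CPM with SX-682, and 24436 to 24464 CPM in untreated B16F10 and 14944 to 15185 CPM with SX-682. In both B16 lines the sum was lower with SX-682, and Mitf was at 371 and 362 CPM in untreated B16F0 and 86.8 and 82.4 CPM with SX-682. In Melan-A single markers moved within a like sum, with Mitf at 103 and 101 CPM untreated and 78.0 and 80.5 CPM treated, Dct at 358 and 351 against 274 and 268 CPM, Tyr at 0.892 and 0.759 against 0.308 and 0.253 CPM, and Tyrp1 at 105 and 108 against 143 and 143 CPM. The share of counts from mitochondrial genes was higher in every treated library than in the untreated ones of its line, at 1.15% in both against 0.957% and 0.968% in Melan-A, 0.847% and 0.863% against 0.756% and 0.779% in B16F0, and 1.24% in both against 1.02% and 0.989% in B16F10. The part of the pigment markers and of the mitochondrial share in the changes below was not tested. The 6 fibroblast markers summed to 114 to 115 CPM in untreated Melan-A and 93.4 to 94.8 CPM with SX-682, and to at most 16.8 CPM in any B16 library. The keratinocyte, leukocyte and endothelial lists summed to at most 8.35, 2.54 and 2.24 CPM. In bulk RNA, fewer cells of one kind and less RNA per cell cannot be told apart.

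Of the 49 genes, 47 had enough counts to be tested. Their median level per kilobase was 21.1 RPKM (reads per kilobase of exon, scaled to library size like CPM) over the 12 libraries, beside 2.82 RPKM for all 18338 tested genes. Snrpb, whose product is the SmB subunit of the Sm ring, had the highest level per kilobase at 105 RPKM. It was followed by the LSm-ring gene Lsm4 at 91.9 RPKM, by Prpf8, which encodes the protein at the heart of the U5 snRNP, at 81.4 RPKM, by U2af2, which encodes the large U2AF subunit that binds the polypyrimidine tract, at 57.7 RPKM, and by the SF3B subunit gene Sf3b2 at 56.1 RPKM. Prpf39, a U1-associated factor, was the lowest tested member at 1.70 RPKM. The 2 untested genes were Snrpn, a neuronal paralogue of Snrpb, which was at or under 3 counts in every library, and U2af1l4, a paralogue of the small U2AF subunit, which was at or under 3 counts in every library of 4 groups. No fold is given for either. Of their exonic bases, 27.3% (Snrpn) and 65.6% (U2af1l4) overlap another gene on the same strand, Gm38393 and Gm49396. Whether counts were lost to these overlaps was not tested.

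The genes were set beside their start-site sequence, since many of them moved together. A start-site sequence (RefSeq, GRCm38.p6, 250 bases before to 50 after the start) was given for 39 of the 49. The GC box GGGCGG, searched on both strands as were the other motifs, was present in 24 of these 39 genes (61.5%), beside 38.2% of the 27025 genes in the table. The ETS motif CCGGAAGT was present in 6 (15.4%, beside 4.31%), the cyclic AMP response element TGACGTCA in 3 (7.69%, beside 2.03%), the YY1 motif in 3 (7.69%, beside 0.995%) and the TATA box TATAAA in 3 (7.69%, beside 15.7%). CCAAT was found in 18 (46.2%, beside 41.1%) and the E-box CACGTG in 4 (10.3%, beside 8.09%). The amino acid response motif TTGCATCA and the NRF1 motif were found in 0 of the 39, beside 1.03% and 1.07%. None of these motifs contains another. Among the 15 genes with a sequence that fell in all 3 lines, 9 held the GC box (60.0%), and among the 7 that rose in some line and fell in none, 5 did (71.4%). These matches are letters in a window and say nothing of binding. The 27025 genes set beside the members were not matched to them for expression level.

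The 3 genes whose response differed most among the lines, Prpf8, Sf3b1 and Sf3a1, are shown by the 250 bases before their start, 5′ to 3′ on the strand of the gene, with any of the motifs above in capitals. Prpf8 lies on the plus strand (chr11:75486527-75486776) and has CCAAT letters, read once on each strand. Sf3b1 (chr1:55027479-55027728, minus strand) and Sf3a1 (chr11:4160104-4160353, plus strand) each have a pair of GC boxes. Sf3a1 also has the ETS and YY1 motifs in the longer window counted above, but neither lies wholly within the 250 bases shown.
Prpf8: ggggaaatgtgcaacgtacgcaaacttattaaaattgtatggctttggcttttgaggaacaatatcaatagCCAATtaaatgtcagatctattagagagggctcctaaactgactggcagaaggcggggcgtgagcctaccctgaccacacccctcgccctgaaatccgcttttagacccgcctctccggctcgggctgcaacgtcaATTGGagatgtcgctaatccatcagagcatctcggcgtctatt
Sf3b1: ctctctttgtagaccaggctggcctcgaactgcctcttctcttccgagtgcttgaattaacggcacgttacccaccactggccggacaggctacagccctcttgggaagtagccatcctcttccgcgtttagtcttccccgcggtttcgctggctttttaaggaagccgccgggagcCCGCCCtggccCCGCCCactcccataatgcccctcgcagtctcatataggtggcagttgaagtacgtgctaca
Sf3a1: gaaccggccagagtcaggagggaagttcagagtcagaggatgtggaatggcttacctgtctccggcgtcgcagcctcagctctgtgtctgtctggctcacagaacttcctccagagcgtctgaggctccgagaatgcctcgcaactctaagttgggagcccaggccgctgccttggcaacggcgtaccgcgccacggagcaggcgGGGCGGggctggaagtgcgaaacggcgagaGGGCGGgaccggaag

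With SX-682 most of these genes fell, by small amounts, but the summed share of counts of all 49 did not fall in every line. That share was 0.520% and 0.524% in untreated Melan-A and 0.478% and 0.477% with SX-682. In B16F10 it was 0.484% and 0.489% against 0.464% in both treated libraries. In B16F0 it did not fall, at 0.515% and 0.511% untreated and 0.516% and 0.526% with SX-682. In Melan-A 36 of the 47 tested genes fell and 4 rose, at an adjusted p under 0.05 in edgeR's quasi-likelihood test across all genes, where 24.7% of all tested genes fell and 23.4% rose. In B16F0 25 fell and 10 rose (all genes 25.0% and 25.1%), and in B16F10 26 fell and 7 rose (all genes 25.3% and 25.5%). The members that fell were therefore 76.6%, 53.2% and 55.3% of those tested. Highly expressed genes pass the test more easily, so the members were also read against the 8164 genes at or above the level of the lowest tested member, of which 40.6%, 39.8% and 41.8% fell and 33.4%, 36.0% and 36.1% rose. For the 47 genes the median log2 fold change was −0.18, −0.11 and −0.14 in the order Melan-A, B16F0, B16F10, while the median of all tested genes was 0 in each. For genes at the members' level it was −0.03, −0.01 and −0.02.

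**Figure D1:**
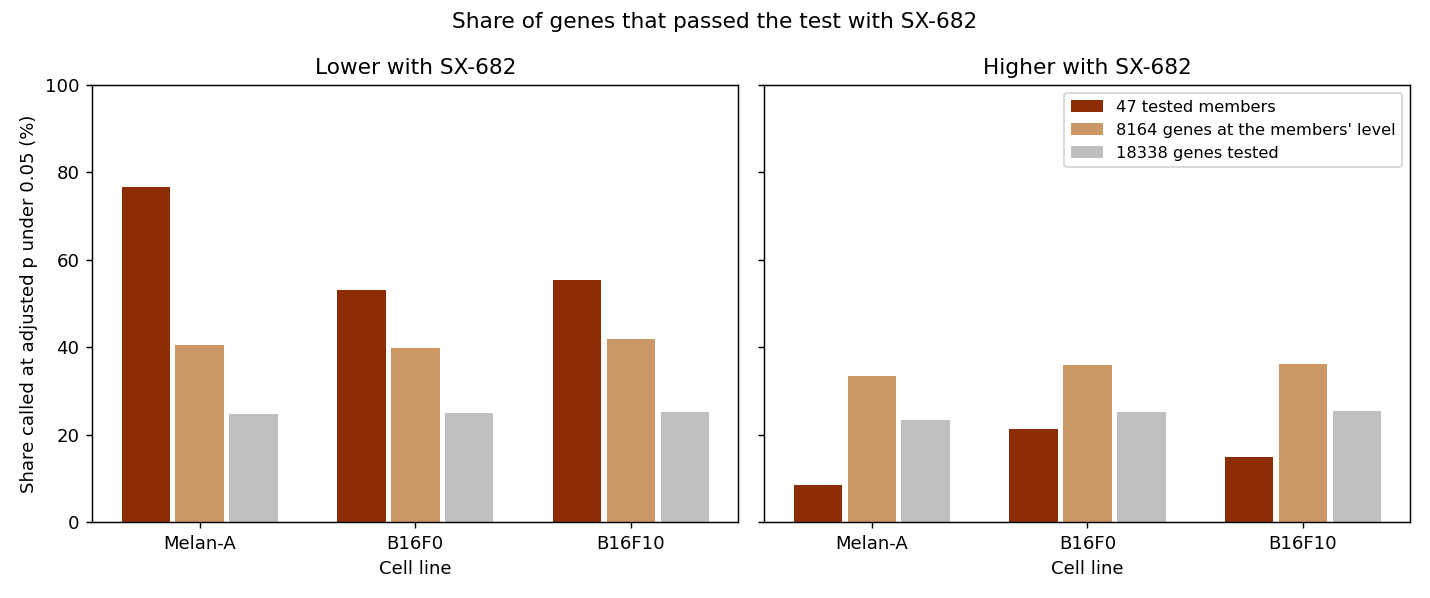
Share of genes (%, vertical axis) that fell (left panel) or rose (right panel) with SX-682 at an adjusted p under 0.05, in each cell line (horizontal axis), for the 47 tested members, the 8164 genes at their level and all 18338 tested genes. The members' share that fell is the tallest bar in each line (76.6%, 53.2% and 55.3%), and their share that rose is the shortest (8.51%, 21.3% and 14.9%).

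Few of the changes were large. At an absolute log2 fold change of 0.5 or more, 4 members fell and 1 rose in Melan-A (8.0% and 8.30% of all tested genes), 1 fell and 2 rose in B16F0 (9.22% and 10.2%), and 4 fell and 1 rose in B16F10 (10.1% and 11.4%). By that limit the members' shares that fell were close to or below those of all genes, and the shift lies in many small falls. Across the lines, 20 members fell in all 3 (42.6%), where 11.7% of all genes and 22.2% of genes at the members' level did so, and 2 rose in all 3, where 11.3% and 18.4% did. Taken by line, 34 members fell in at least 1 line and rose in none, 8 rose in at least 1 and fell in none, 4 did both, and Snrpa, which encodes a U1 snRNP protein that binds a loop of U1 RNA, passed the test in none. The 3 lines' comparisons use separate controls.

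**Figure D2:**
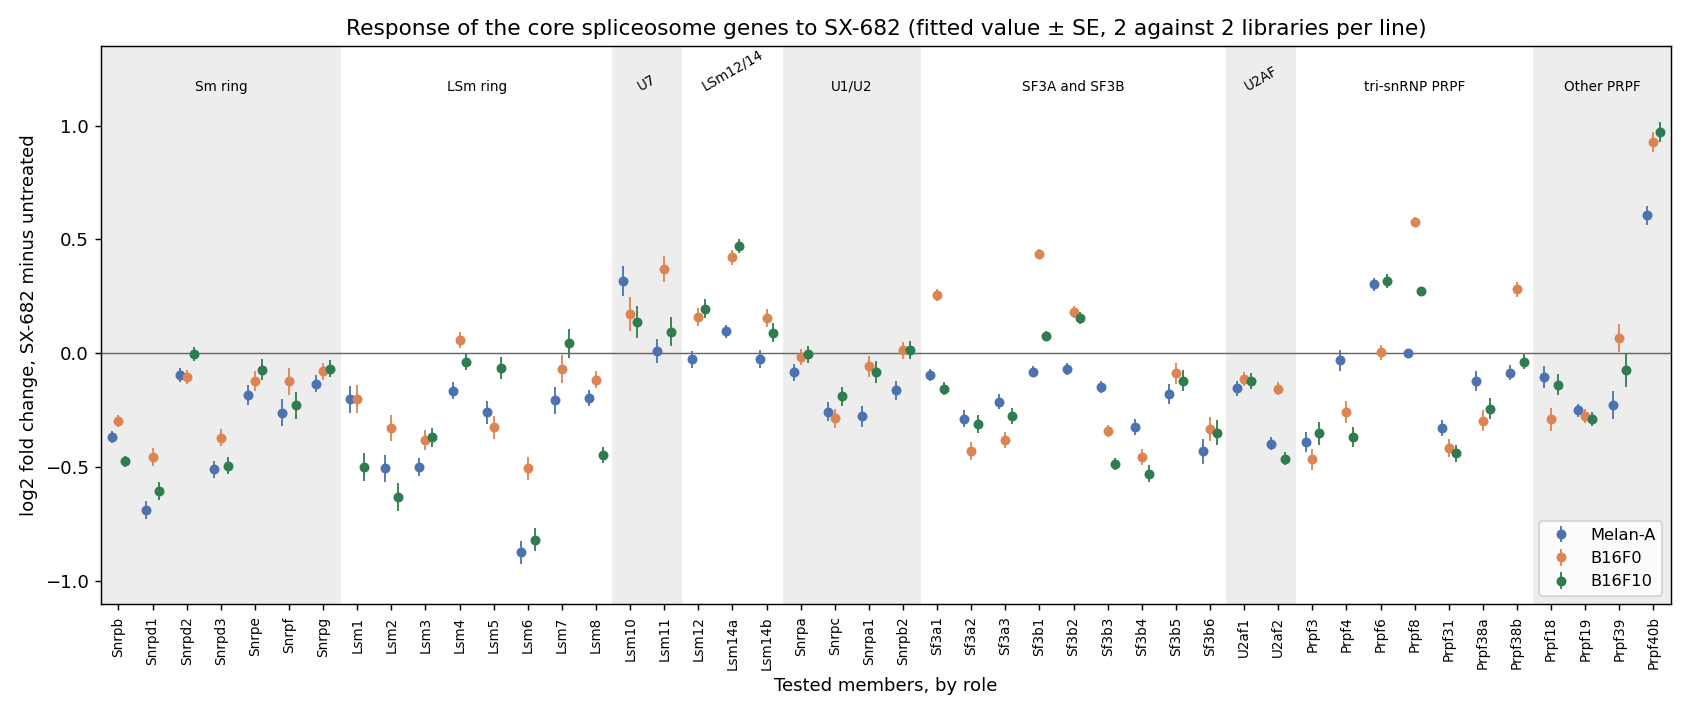
Fitted log2 fold change with SX-682 (vertical axis, ± SE, 2 treated against 2 untreated libraries) of the tested members (horizontal axis, grouped by role in shaded blocks, 1 member not shown), colored by line. Lsm6 has the lowest values in every line (−0.87, −0.50 and −0.82) and Prpf40b the highest (0.61, 0.93 and 0.97), and the Sm and LSm rings lie mostly below 0.

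The Sm ring is the core of the U1, U2, U4 and U5 snRNPs. All 7 of its tested genes fell in Melan-A, 5 fell in B16F0 and 4 in B16F10, and none rose in any line. For this and each role group below, the comparison is with genes at the members' level. Of these, 40.6%, 39.8% and 41.8% fell and 33.4%, 36.0% and 36.1% rose in Melan-A, B16F0 and B16F10. Snrpd1, which encodes SmD1, was at 73.9 and 73.5 CPM in untreated Melan-A and 44.6 and 47.0 CPM with SX-682. It was at 81.8 and 85.5 CPM in untreated B16F0 against 60.4 and 61.7 CPM, and at 76.8 and 77.1 CPM in untreated B16F10 against 52.0 and 49 CPM. Every treated library lay below every untreated library of its line, with log2 fold changes of −0.69 ± 0.04 (SE, adjusted p = 3.39e-15), −0.46 ± 0.04 (adjusted p = 3.03e-11) and −0.61 ± 0.04 (adjusted p = 7.21e-14). Snrpd3, which encodes SmD3, was at 96.6 and 92.0 CPM in untreated Melan-A and 66.4 and 66.1 CPM with SX-682, at 149 and 137 CPM in untreated B16F0 and 108 and 113 CPM with SX-682, and at 127 and 128 CPM in untreated B16F10 and 89.3 and 91.6 CPM with SX-682. The groups did not overlap in any line, and the fitted changes were −0.51, −0.37 and −0.49. Snrpb went from 164 and 163 to 127 and 126 CPM in Melan-A, from 282 and 282 to 229 and 230 CPM in B16F0 and from 260 and 255 to 186 and 184 CPM in B16F10. It too was lower in every treated library, with log2 fold changes of −0.37, −0.30 and −0.47.

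The other Sm-ring genes changed less. Snrpd2, Snrpe, Snrpf and Snrpg, which complete the ring, had log2 fold changes between −0.26 and −0.09 in Melan-A, where all fell, between −0.12 and −0.08 in B16F0, where Snrpd2 and Snrpe fell, and between −0.23 and −0.00 in B16F10, where Snrpf alone fell. The B16F0 calls of Snrpd2 and Snrpe were lost without untreated library 2 or SX-682 library 1 of that line, the Melan-A call of Snrpd2 without untreated library 1 or SX-682 library 1, and that of Snrpg without SX-682 library 2. For 2 of them the counts are uncertain. Of the exonic bases of Snrpf, 65.9% overlap Ccdc38 on the other strand, and the strand setting of the counting is not given in the sources used here. Ccdc38 itself had 147 counts over the 12 libraries. Of the 50-base stretches of Snrpg, 11.6% also occur in another gene, mainly the pseudogene Gm8186, which had 20867 counts.

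The LSm ring sits on U6 RNA in the nucleus as LSM2 to LSM8, and as LSM1 to LSM7 it acts in the decay of decapped mRNA in the cytoplasm. All 8 of its genes fell in Melan-A, 6 fell in B16F0 and 5 in B16F10, and none rose. Lsm6 (chr8:78804865-78821140, mm10) had the largest fall of any member in each line. It was at 44.3 and 39.8 CPM in untreated Melan-A and 21.8 and 24.0 CPM with SX-682, at 55.9 and 54.3 CPM in untreated B16F0 and 38.6 and 39.1 CPM with SX-682, and at 67.7 and 68.5 CPM in untreated B16F10 and 37.7 and 39.5 CPM with SX-682. The untreated levels differed between the lines, and the treated libraries of both B16 lines ended near one another. The log2 fold changes were −0.87 ± 0.05 (SE, adjusted p = 1.39e-14), −0.50 ± 0.05 (adjusted p = 9.69e-10) and −0.82 ± 0.05 (adjusted p = 1.55e-14), a change in mean CPM of −45.5%, −29.5% and −43.3%.

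Lsm2 and Lsm3, which encode subunits shared by both rings, fell in all 3 lines as well. Lsm2 went from 33.5 and 36.0 to 24.3 and 24.7 CPM in Melan-A, from 40.7 and 42.1 to 30.4 and 35.9 CPM in B16F0 and from 39.5 and 38.5 to 25.0 and 25.4 CPM in B16F10. Lsm3 went from 70.4 and 68.9 to 48.9 and 49.6 CPM in Melan-A, from 46.2 and 46.4 to 34.1 and 37.4 CPM in B16F0 and from 69.0 and 67.5 to 52.5 and 53.2 CPM in B16F10. Neither gene had a treated library within the untreated range. The gene that sets the cytoplasmic ring apart, Lsm1, and the gene that sets the nuclear ring apart, Lsm8, both fell in all 3 lines. Lsm1 changed by −0.20, −0.20 and −0.50 on the log2 scale, with the B16F0 call lost without SX-682 library 1 of that line (adjusted p = 0.0916), and Lsm8 by −0.20, −0.11 and −0.45, with the B16F0 call lost without untreated library 2 or SX-682 library 1. Lsm4 and Lsm7 passed the test in Melan-A (Lsm7 not without untreated library 1), and Lsm5 fell in Melan-A and B16F0. Of the 50-base stretches of Lsm5, 21% also occur in another gene, mainly the pseudogene Gm7846.

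LSm proteins outside these rings behaved differently, and none of their 5 genes fell in any line. Lsm10 and Lsm11 encode subunits of the U7 snRNP, which processes histone mRNA. Lsm10 was at 19.3 and 19.1 CPM in untreated Melan-A and 24.4 and 23.5 CPM with SX-682, a log2 rise of 0.32 ± 0.07 (adjusted p = 0.000189). In B16F0 and B16F10 its values were 0.17 and 0.14, with adjusted p = 0.0593 and 0.117. Lsm11 rose in B16F0, from 25.9 and 24.1 to 33.3 and 31.2 CPM, by 0.37 ± 0.06 (adjusted p = 3.39e-06), and had log2 values of 0.01 in Melan-A and 0.09 in B16F10, which did not pass.

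Lsm14a encodes an LSm-domain protein of cytoplasmic mRNA granules. It was at 125 and 132 CPM in untreated Melan-A and 136 and 138 CPM with SX-682, at 108 and 112 CPM in untreated B16F0 and 147 and 149 CPM with SX-682, and at 138 and 143 CPM in untreated B16F10 and 195 and 195 CPM with SX-682. The treated libraries were the higher ones in each line. Its log2 rise was 0.10 ± 0.03 in Melan-A (adjusted p = 0.00954), 0.42 ± 0.03 in B16F0 (adjusted p = 1.63e-12) and 0.47 ± 0.03 in B16F10 (adjusted p = 5.92e-14). The Melan-A call was lost without untreated library 1 (adjusted p = 0.192) or SX-682 library 2 (adjusted p = 0.0703) of that line, which leaves Prpf40b as the 1 member that rose in all 3. Its paralogue Lsm14b rose in B16F0 (0.16), and Lsm12 rose in B16F0 (0.16) and B16F10 (0.20).

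**Figure D3:**
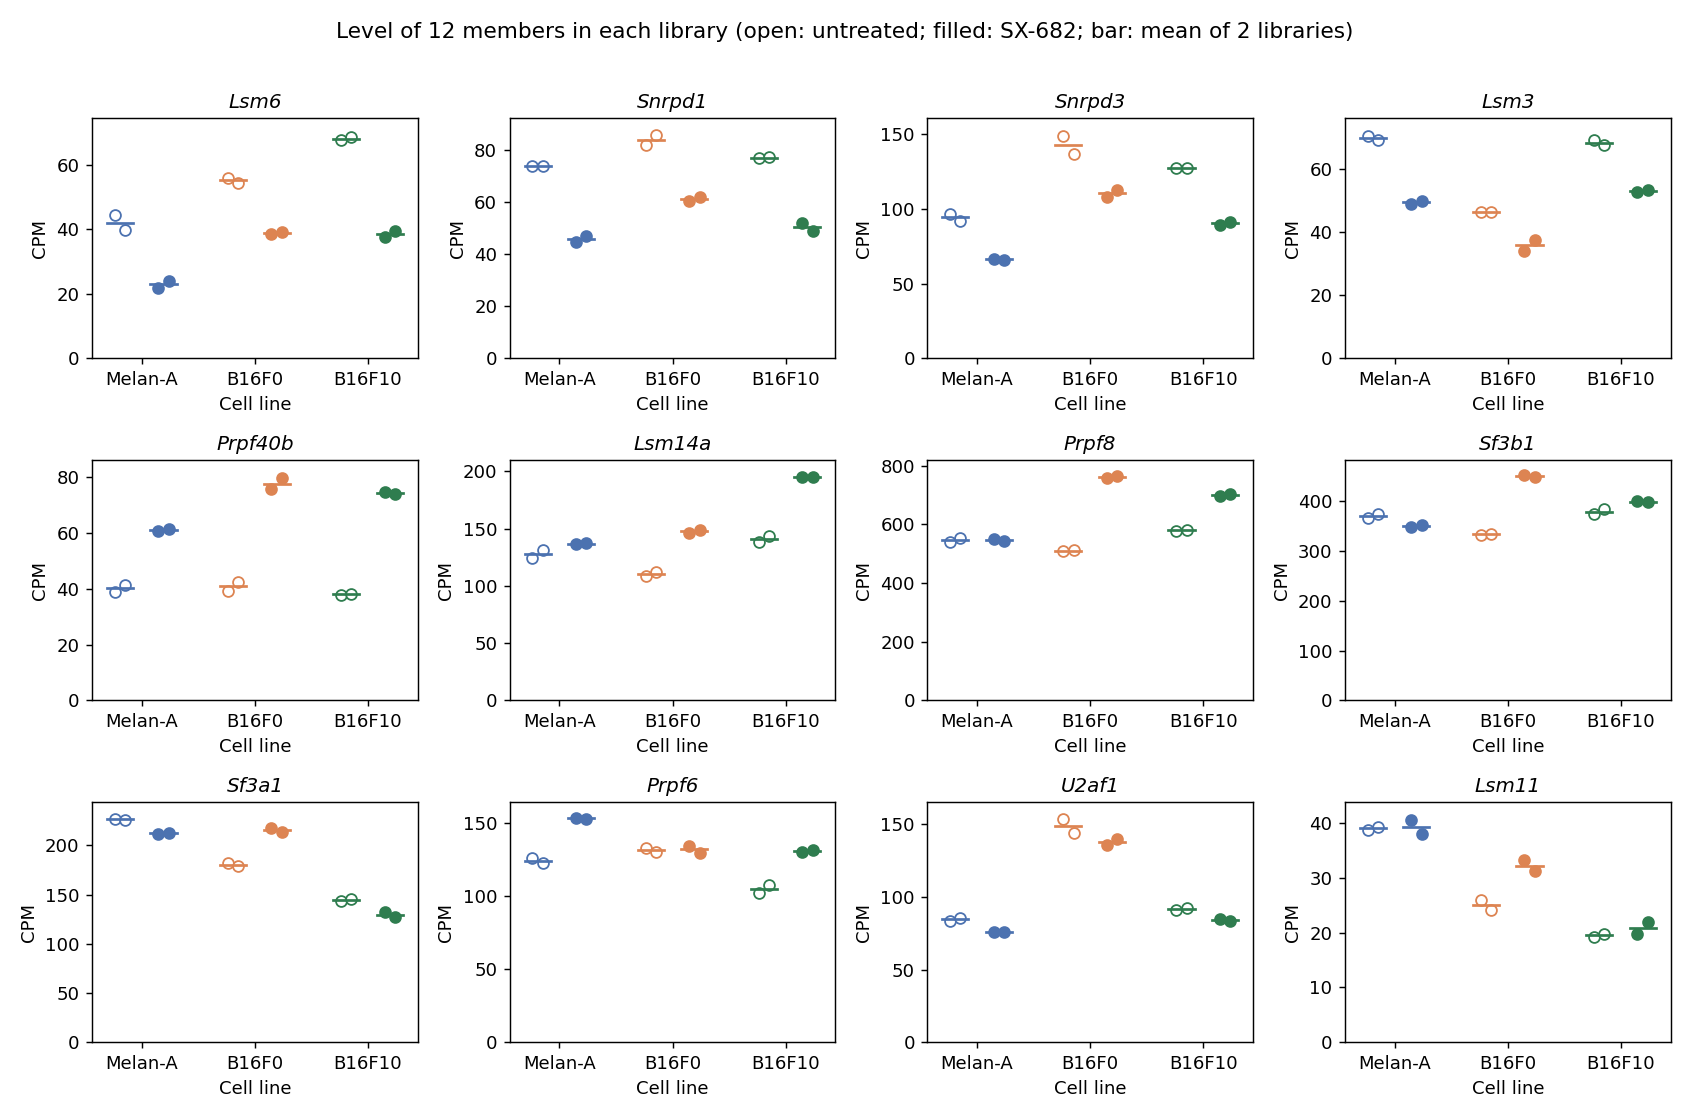
CPM (vertical axis, from 0) of 12 members in each library of Melan-A, B16F0 and B16F10 (horizontal axis), with open points for untreated libraries, filled points for SX-682 libraries and a bar at the mean of 2. The filled points lie below the open points in all 3 lines for Lsm6, Snrpd1, Snrpd3 and Lsm3 and above them for Prpf40b and Lsm14a, while for Sf3b1 and Sf3a1 the order turns between lines.

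Of the 4 tested genes for proteins particular to the U1 and U2 snRNPs, 3 fell in Melan-A and 1 in each B16 line, and none rose. The share that fell in each B16 line, 25%, was near that of all genes (25.0% in B16F0 and 25.3% in B16F10). It was below that of genes at the members' level (39.8% and 41.8%). The median log2 fold change of the 4 genes was −0.21 in Melan-A, beside −0.18 for all tested members, and −0.04 in both B16 lines. Snrpc, which encodes the zinc-finger protein of the U1 snRNP, fell in all 3 lines (−0.26, −0.29 and −0.19 on the log2 scale). Snrpa1 and Snrpb2, which encode a pair of U2 snRNP proteins that bind U2 RNA together, fell in Melan-A (−0.28 and −0.16). In the B16 lines their values lay between −0.08 and 0.01 and did not pass. Snrpa had values of −0.08, −0.02 and −0.00, and 20.2% of its 50-base stretches also occur elsewhere, chiefly in BC024978.

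SF3A and SF3B form the part of the U2 snRNP that holds the branch site, and here the subunits of one complex went different ways. All 9 genes fell in Melan-A, 5 fell and 3 rose in B16F0, and 7 fell and 2 rose in B16F10. Sf3b4 was at 72.5 and 71.0 CPM in untreated Melan-A and 56.6 and 58.0 CPM with SX-682, at 78.4 and 79.2 CPM in untreated B16F0 and 57.6 and 57.4 CPM with SX-682, and at 74.4 and 73.3 CPM in untreated B16F10 and 50.8 and 51.6 CPM with SX-682. It was lower in every treated library, with log2 fold changes of −0.33, −0.45 and −0.53. Of the 50-base stretches of Sf3b4, 45.3% also occur in another gene, mainly the pseudogene Gm7935, which had 377 counts in all. Sf3a2 fell in all 3 lines (−0.29, −0.43 and −0.31), and 16.1% of its exonic bases overlap Plekhj1 on the other strand. Sf3a3, Sf3b3 and Sf3b6 also fell in all 3 lines, with log2 fold changes between −0.49 and −0.15. Sf3b5 fell in Melan-A and B16F10 (−0.18 and −0.12). Its Melan-A call was lost without untreated library 2 of that line. Its B16F10 call was lost without untreated library 2 or either SX-682 library of that line.

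Sf3b1, which encodes the large subunit that cradles the branch-site helix and is mutated in uveal melanoma and blood cancers, followed another pattern. It was at 367 and 374 CPM in untreated Melan-A and 348 and 353 CPM with SX-682, at 333 and 334 CPM in untreated B16F0 and 453 and 449 CPM with SX-682, and at 374 and 384 CPM in untreated B16F10 and 400 and 399 CPM with SX-682. The treated libraries were the lower ones in Melan-A and the higher ones in both B16 lines. The log2 changes were −0.08 ± 0.02 (adjusted p = 0.00377), 0.44 ± 0.02 (adjusted p = 5.49e-16) and 0.08 ± 0.02 (adjusted p = 0.00592). Sf3b2, its partner in the complex, had values of −0.07, 0.18 and 0.15 and passed in each line. The small changes were fragile. The Melan-A call of Sf3b1 was lost without SX-682 library 1 (adjusted p = 0.0546) and its B16F10 call without untreated library 1 (adjusted p = 0.109). The Melan-A call of Sf3b2 was lost without untreated library 1 or without either SX-682 library (adjusted p between 0.0796 and 0.098), and both Melan-A calls were lost with upper-quartile scaling.

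Sf3a1, the scaffold of SF3A, rose in B16F0 and fell in the others. It was at 227 and 226 CPM in untreated Melan-A and 212 and 213 CPM with SX-682, at 182 and 179 CPM in untreated B16F0 and 217 and 214 CPM with SX-682, and at 143 and 146 CPM in untreated B16F10 and 132 and 127 CPM with SX-682. None of these groups overlapped, and the log2 changes were −0.09 ± 0.03 (adjusted p = 0.00339), 0.26 ± 0.03 (adjusted p = 2.03e-09) and −0.16 ± 0.03 (adjusted p = 1.97e-05).

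Both tested U2AF genes fell in all 3 lines. U2af2 went from 290 and 300 to 223 and 225 CPM in Melan-A, from 231 and 223 to 197 and 211 CPM in B16F0 and from 273 and 276 to 198 and 200 CPM in B16F10. The falls in Melan-A and B16F10 (−0.40 and −0.46) were larger than that in B16F0 (−0.15), and the difference among the lines passed its test (adjusted p = 4.88e-07). U2af1, which encodes the small subunit that reads the AG at the 3′ splice site, changed by −0.15, −0.11 and −0.12 on the log2 scale, and its 3 values did not pass the test of a difference (adjusted p = 0.754, range 0.04). Its B16F0 call was lost without untreated library 1 (adjusted p = 0.181) or SX-682 library 1 (adjusted p = 0.0699) of that line. Of its 50-base stretches, 21.7% also occur in another gene, mainly Gm10232.

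The PRPF genes of the tri-snRNP did not move alike. Prpf3 and Prpf31, which encode U4/U6 proteins, fell in all 3 lines, and Prpf4, the partner of PRPF3, fell in both B16 lines (−0.26 and −0.37). Prpf3 was at 46.9 and 48.3 CPM in untreated Melan-A and 36.1 and 36.7 CPM with SX-682, at 45.5 and 44.7 CPM in untreated B16F0 and 33.3 and 32.0 CPM with SX-682, and at 29.9 and 30.6 CPM in untreated B16F10 and 23.8 and 23.6 CPM with SX-682. Every treated library was below the untreated ones of its line, with log2 changes of −0.39, −0.46 and −0.35. Prpf31 changed by −0.33, −0.42 and −0.44, and 18.1% of its exonic bases overlap Gm15927 on the other strand. Prpf38a, whose product enters with the tri-snRNP, fell in all 3 lines (−0.12, −0.30 and −0.24), though its Melan-A call was lost with upper-quartile or total-count scaling, without a filter, and without either untreated library or SX-682 library 2. Its relative Prpf38b had values of −0.09 in Melan-A (adjusted p = 0.0333), 0.28 in B16F0 (adjusted p = 1.8e-08) and −0.04 in B16F10 (adjusted p = 0.404). It thus rose in B16F0, and its Melan-A call was lost under each other scaling, in DESeq2 and without single libraries.

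Prpf8 and Prpf6, members that encode U5 proteins, fell in no line, while the U5 helicase gene Ddx23, outside the name rule, fell in all 3 (−0.56, −0.66 and −0.58). Prpf8 was at 539 and 555 CPM in untreated Melan-A and 549 and 544 CPM with SX-682, at 510 and 511 CPM in untreated B16F0 and 758 and 766 CPM with SX-682, and at 577 and 582 CPM in untreated B16F10 and 697 and 703 CPM with SX-682. The groups overlapped in Melan-A, and the treated libraries were higher in both B16 lines. The log2 changes were −0.00 ± 0.02 (adjusted p = 0.994), 0.58 ± 0.02 (adjusted p = 1.09e-19) and 0.27 ± 0.02 (adjusted p = 3e-12). Prpf6, which encodes the protein that bridges U5 to U4/U6, went from 126 and 122 to 154 and 152 CPM in Melan-A and from 102 and 108 to 130 and 132 CPM in B16F10. In B16F0 its libraries overlapped, at 133 and 130 CPM untreated and 134 and 130 CPM with SX-682. Its log2 changes were 0.30, 0.00 and 0.32, so the line in which Prpf8 rose most was the one in which Prpf6 did not pass.

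Prpf40b was the member that rose most in every line. It encodes a U1-associated factor and lies at chr15:99295087-99317018 (mm10). It was at 38.8 and 41.5 CPM in untreated Melan-A and 60.9 and 61.3 CPM with SX-682, at 39.3 and 42.4 CPM in untreated B16F0 and 75.7 and 79.8 CPM with SX-682, and at 37.8 and 38.1 CPM in untreated B16F10 and 74.8 and 74.1 CPM with SX-682. The untreated lines were close to each other and every treated library was far above them. Its log2 rise was 0.61 ± 0.04 (adjusted p = 5.36e-13), 0.93 ± 0.04 (adjusted p = 3.91e-17) and 0.97 ± 0.04 (adjusted p = 1.56e-17), and mean CPM was higher by 52.1%, 90.4% and 96.1%. Prpf19, the ubiquitin ligase of the PRP19 complex, fell in each line (−0.25, −0.28 and −0.29, difference among lines adjusted p = 0.748). Prpf18, a second-step factor, fell in both B16 lines, with the B16F10 call lost without untreated library 1 or either SX-682 library of that line. Prpf39 fell in Melan-A, a call lost without SX-682 library 2 (adjusted p = 0.0561).

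The response was also compared between lines within 1 fit. It differed among the 3 lines for 29 of the 47 members (61.7%), where 47.4% of all genes did. The median range of the fold change over the lines was nevertheless smaller for the members (0.21) than for genes at their level (0.30) and for all genes (0.51). Highly expressed genes pass these tests more easily too, and the share called at the members' level was not counted for them. The range over the lines was widest for Prpf8 (0.58, adjusted p = 4.68e-15), Sf3b1 (0.52, adjusted p = 2.01e-13), Sf3a1 (0.41, adjusted p = 3.33e-10), Lsm14a (0.37, adjusted p = 2.37e-08) and Lsm6 (0.37, adjusted p = 0.000145). The mean response of the B16 lines was higher than that of Melan-A for 19 members (18.7% of all genes) and lower for 6 (17.1%). The response was lower in B16F10 than in B16F0 for 14 members (14.9% of all genes), among them Sf3a1 (−0.41), Sf3b1 (−0.36), Lsm6 (−0.31), U2af2 (−0.31) and Prpf8 (−0.31), and higher for 2 (15.3%), Prpf6 (0.31) and Lsm5 (0.26). No difference in response between the B16 lines and Melan-A, or between B16F10 and B16F0, reached 0.5 in a called member (0 of 25 and 0 of 16), where 5.38% and 5.60% of all genes were lower and higher by that limit in the first comparison and 3.84% and 4.56% in the second. The 2 higher members became 5 without SX-682 library 2 of B16F0, and 6 when libraries were scaled by total counts alone.

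Untreated cells of the 3 lines differed in the members too. Untreated B16F0 was higher than untreated Melan-A for 21 members (35.3% of all genes) and lower for 13 (40.6%). Untreated B16F10 was higher than untreated Melan-A for 25 (33.4%) and lower for 11 (40.8%). Between the B16 lines, untreated B16F10 was lower for 22 (31.2%) and higher for 19 (30.8%). At a log2 difference of 0.5 or more, 2 were lower and 6 higher in B16F0 than in Melan-A (29.8% and 23.2% of all genes), 4 and 5 in B16F10 than in Melan-A (30.1% and 20.2%), and 4 and 3 in B16F10 than in B16F0 (18.7% and 15.2%). These comparisons share control libraries, and the shares of all genes given beside them are not matched for expression level. The balance between higher and lower depended on the scaling. With total counts alone it was 19 higher and 19 lower in B16F0 and 13 higher and 24 lower in B16F10, and the median of all genes moved by −0.09 and −0.19. With genes of at least 10 counts in every library it was 20 higher and 18 lower in B16F10.

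Single genes stood out from this shift. U2af1 was at 83.6 and 85.4 CPM in untreated Melan-A, 153 and 144 CPM in untreated B16F0 and 90.9 and 92.3 CPM in untreated B16F10, a log2 difference from Melan-A of 0.82 ± 0.03 (adjusted p = 8e-20) in B16F0 and 0.12 ± 0.03 (adjusted p = 0.00268) in B16F10. The B16F10 value turned to −0.07 (adjusted p = 0.0591) with total counts alone. Lsm11 was at 38.8 and 39.3 CPM in untreated Melan-A, 25.9 and 24.1 CPM in B16F0 and 19.3 and 19.7 CPM in B16F10, with log2 differences from Melan-A of −0.64 ± 0.06 and −1.0 ± 0.06. The 3 lines did not overlap for Lsm11. Snrpb was higher than in Melan-A by 0.79 in B16F0 and 0.65 in B16F10, and Snrpd3 by 0.60 and 0.43, so both had their highest levels in the melanoma lines and fell with SX-682 in all 3 lines. Snrpb2 was higher by 0.60 and 0.51. Lsm5 and Lsm6 were higher by 0.57 and 0.39 in B16F0 and by 0.70 and 0.70 in B16F10.

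**Figure D4:**
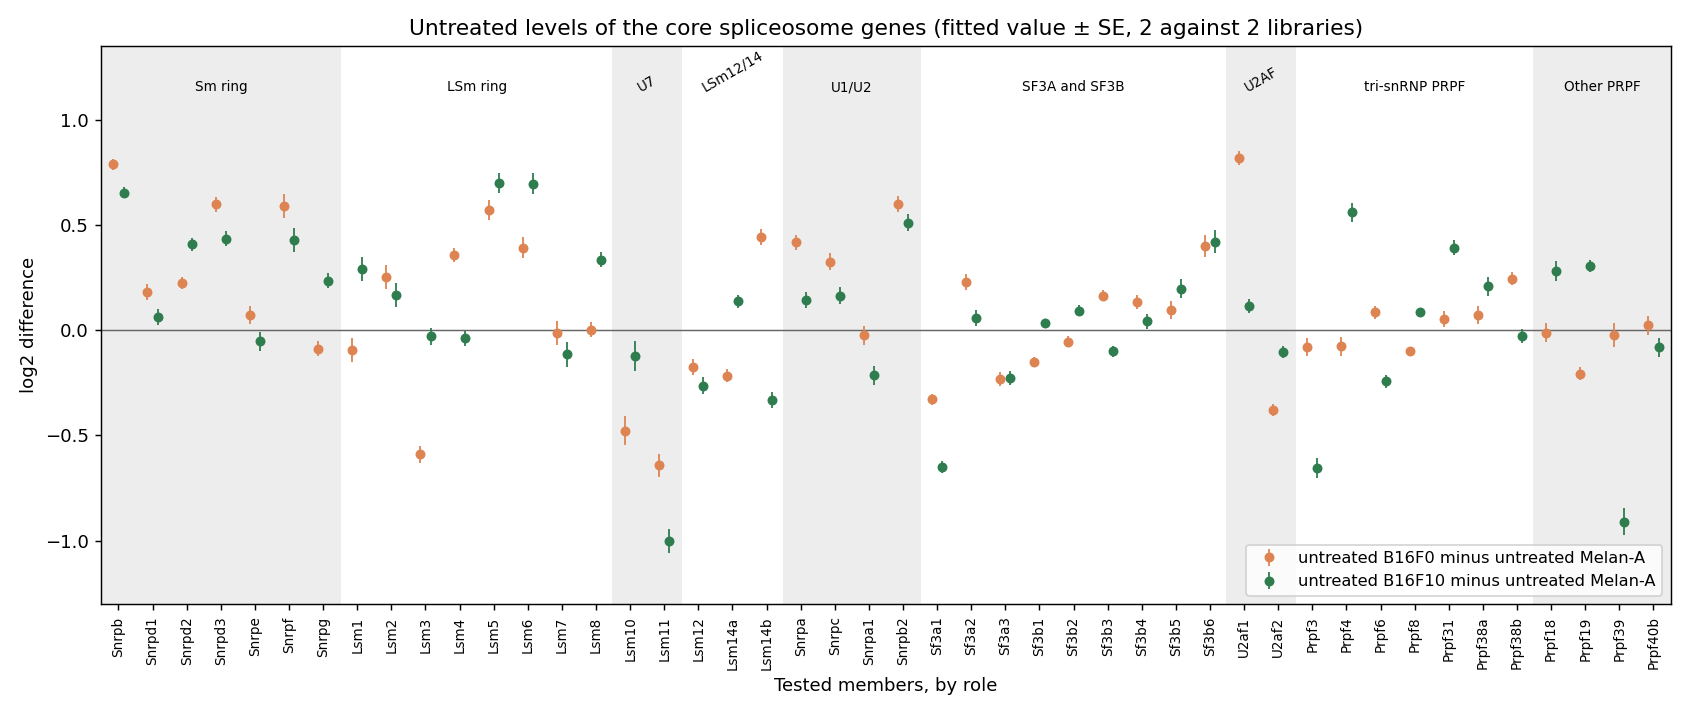
Fitted log2 difference (vertical axis, ± SE, 2 against 2 libraries) of untreated B16F0 and untreated B16F10 from untreated Melan-A for the tested members (horizontal axis, grouped by role, 1 member not shown). The Sm ring lies mostly above 0, with Snrpb at 0.79 and 0.65, and both U7 genes lie below it, with Lsm11 at −0.64 and −1.0.

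Prpf39 was at 25.3 and 24.4 CPM in untreated Melan-A, 24.7 and 24.2 CPM in B16F0 and 12.7 and 13.7 CPM in B16F10, with a log2 difference from Melan-A of −0.91 ± 0.06 (adjusted p = 1.22e-13). Prpf3 was lower in B16F10 too, with a difference of −0.66 ± 0.05 (adjusted p = 8.11e-14). In B16F0 the values of Prpf3 and Prpf4 did not pass (−0.08 for each, adjusted p = 0.0972 and 0.126), but both passed with relative log expression, total counts, a minimum of 10 counts per library or DESeq2. Between the B16 lines themselves both were lower in B16F10, with differences of −0.89 for Prpf39 (adjusted p = 5.31e-13) and −0.58 for Prpf3 (adjusted p = 3.81e-12). Prpf4 went the other way in B16F10, at 0.56 ± 0.04 above Melan-A (adjusted p = 1.87e-12), and Sf3a1 was lower in both B16 lines (−0.33 and −0.65). Lsm3 was lower in B16F0 (−0.59, adjusted p = 6e-14) and had a value of −0.03 in B16F10 (adjusted p = 0.507). Prpf40b, which rose most with SX-682, differed between untreated B16F0 and Melan-A by 0.02 (adjusted p = 0.648) and between untreated B16F10 and Melan-A by −0.08 (adjusted p = 0.105).

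Spliceosome genes outside the name rule were counted in 5 lists, together with genes of snRNP assembly and of mRNA decay. Of 75 tested genes, 34 fell and 14 rose in Melan-A, 30 fell and 22 rose in B16F0, and 29 fell and 23 rose in B16F10. The shares that fell, 45.3%, 40% and 38.7%, were near the 40.6%, 39.8% and 41.8% of genes at the members' level, and the shares that rose were 18.7%, 29.3% and 30.7%, beside 33.4%, 36.0% and 36.1%. The pooled shares cover unlike lists. Among 21 other snRNP proteins, 61.9%, 57.1% and 57.1% fell and 4.76%, 23.8% and 23.8% rose in Melan-A, B16F0 and B16F10. In all 3 lines 10 of them fell (47.6%) and 1 rose (4.76%), where 22.2% and 18.4% of genes at the members' level did. The clearest falls there were those of Luc7l3, a U1-associated factor (−0.67, −1.05 and −1.25), and Ddx23, the U5 helicase named above. Among 22 PRP19 complex and catalytic-step factors, 3 fell (13.6%) and 5 rose (22.7%) in all 3 lines, with Bud31 lower (−0.57, −0.55 and −0.51) and Xab2 higher (0.39, 0.55 and 0.67). The 8 tested minor-spliceosome genes gave 1 fall (Snrnp25) and 1 rise (Snrnp48) in all 3 lines.

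Sm rings are loaded onto snRNA by the SMN complex after methylation by the PRMT5 methylosome. Of 16 such assembly genes, 4 fell in all 3 lines and 1 rose. Wdr77, the methylosome partner of PRMT5, fell in each line (−0.52, −0.71 and −1.02), as did Sart3, the U6 recycling factor (−0.27, −0.15 and −0.46). Of 8 genes that act with the LSM1 to LSM7 ring in mRNA decay, 2 fell in all 3 lines, Ddx6 (−0.36, −0.37 and −0.89) and Dcp2 (−0.44, −0.39 and −0.23), and 1 rose. The share of these 75 genes that fell in all 3 lines was 26.7%, beside 42.6% of the tested members and 22.2% of genes at the members' level.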

How the data were processed

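RNA was sequenced from Melan-A, B16F0 and B16F10 cells, untreated or given SX-682, in 12 libraries. The authors deposited 1 table of raw read counts per gene, which was used unchanged. Per the labels, reads were trimmed with cutadapt and aligned with STAR to mm10, and DESeq2 was used. Versions, annotation and the strand setting are not given in the sources used here. Gene coordinates and exon lengths are those of the table, and 48 of the 49 members have the coordinates and exon length of GENCODE M21. RPKM was computed from the deposited counts and lengths.

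Genes were kept by filterByExpr (18338 genes), scaled by TMM and tested with the quasi-likelihood F test of edgeR 4.0.16 (R 4.3.3) in 1 fit over all 12 libraries and 6 groups, without a block. The prior count was 0.125 and Benjamini-Hochberg adjustment ran over all tested genes, with calls at 0.05. SE is the absolute log2 fold change over the square root of F. Depth was 48876982 to 85322092 counts a library, and the common biological coefficient of variation was 2.78%. The method was tested on simulated data: in Melan-A, of 50 genes changed by 0.5 on the log2 scale, 68.0% were recovered among 17009 genes, and of 50 changed by 0.3, 64.0%. In B16F0 and B16F10 the shares were 72.0% and 66.0% at 0.5, and 56.0% in both at 0.3. The simulation gave every gene the common dispersion and included genes with far fewer counts than the tested members. These shares therefore do not describe the members. Replicates differed by more than sampling noise in every group (chi-square per gene 2.87 to 5.25).

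The members, role groups and lists were chosen with earlier results of these data known. Genes named are, per line, the 5 largest falls and 5 largest rises among called members whose libraries do not overlap, with a mean log2 CPM of at least 1. They also include the 4 largest shared falls and rises, the 5 widest ranges over lines, the 5 largest untreated differences, the best expressed member of each role, and members at or under 3 counts in a group. Other members are given to complete their complex, the values of 1 member are not reported here although the counts include it, and list examples are the 2 genes with the smallest worst adjusted p that changed alike in all 3 lines. Alternatives were other scalings (relative log expression, upper quartile, total counts), testing all genes with a count, a minimum of 10 counts in each library, a replicate block, a log2 limit of 0.5, a prior count of 2, DESeq2 1.42.0, a separate fit for each line and leaving out each library.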

Additional observations from a re-analysis of the deposited data

Results flagged for a closer look

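The response to SX-682 differed among the 3 lines, by an interaction test in the fit over all 12 libraries, for 22 of the members named by the rule. The figure given for each is the range of the log2 fold change over the lines. It was 0.58 for Prpf8, 0.52 for Sf3b1, 0.41 for Sf3a1, 0.37 for Lsm14a, 0.37 for Lsm6, 0.37 for Prpf40b and 0.36 for Lsm11. Ranges of 0.31 for Prpf6, 0.31 for U2af2, 0.30 for Lsm2, 0.30 for Lsm1, 0.29 for Prpf39, 0.26 for Lsm5 and 0.25 for Sf3b2 followed. The rest were 0.23 for Snrpd1, 0.22 for Lsm4, 0.22 for Lsm12, 0.20 for Sf3b4, 0.18 for Lsm14b, 0.18 for Snrpb, 0.18 for Snrpb2 and 0.14 for Snrpd3. Adjusted p was between 4.68e-15 (Prpf8) and 0.0465 (Snrpd3). In Sf3b1, Sf3b2 and Sf3a1 the called direction itself differed between lines. In the others of these 22 with calls in more than 1 line the called directions were the same. Members given only to complete their complex are not in this list. Among them Prpf38b (range 0.37, adjusted p = 1.5e-07) was called lower in Melan-A and higher in B16F0.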

How the results depend on the processing

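Each alternative was compared with the fit described above. No called member turned to a called change in the other direction with SX-682 under any of the fits across all 12 libraries. The counts of members that fell, 36, 25 and 26, ranged from 31 to 36, 20 to 29 and 24 to 26 when single libraries were left out, the counts that rose from 3 to 4, 10 to 11 and 6 to 9, those that fell in all 3 lines from 17 to 22, and those that rose in all 3 from 1 to 3. The members that differed among the lines ranged from 25 to 31, the lower and higher responses of the B16 lines against Melan-A from 4 to 7 and 14 to 21, and those of B16F10 against B16F0 from 12 to 15 and 2 to 5. Untreated counts ranged from 11 to 13 lower and 20 to 22 higher for B16F0 against Melan-A, 11 to 12 and 24 to 25 for B16F10 against Melan-A, and 17 to 22 and 16 to 19 for B16F10 against B16F0. The median log2 fold change of the members ranged from −0.19 to −0.17 in Melan-A, −0.16 to −0.073 in B16F0 and −0.17 to −0.13 in B16F10.

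That median moved by more than the very small spread between replicates in B16F10 with relative log expression (−0.14), no filter (−0.15), a minimum of 10 counts per library (−0.14), DESeq2 (−0.14) and a separate fit for each line (−0.14), and in Melan-A and B16F10 with upper-quartile scaling (−0.15 and −0.10) and total counts (−0.17 and −0.12). It stayed below 0 in each. With total counts the higher responses of B16F10 against B16F0 numbered 6, and untreated B16F10 was lower than Melan-A for 24 members and higher for 13. With a minimum of 10 counts per library it was lower for 18. Of the named members, total counts turned the untreated B16F0 value of Prpf6 to −0.0075 and the untreated B16F10 values of Lsm2 to −0.020, Prpf8 to −0.10, Sf3b2 to −0.093, Snrpa to −0.041, U2af1 to −0.070 and Lsm14a to −0.049. The values of Prpf8 (adjusted p = 5.85e-05) and Sf3b2 (adjusted p = 0.000771) passed the edgeR test in this opposite direction, and the others did not pass.

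Other SX-682 calls lost to scaling were those of Snrpd2 in Melan-A and Prpf18 in B16F10 (upper quartile), Sf3b5 in B16F10 (upper quartile and total counts), Sf3b2 in Melan-A (total counts) and Snrpe in B16F0 (relative log expression, upper quartile and DESeq2). A log2 limit of 0.5 removed most calls by construction. It left 4, 1 and 4 falls and 1, 2 and 1 rises in Melan-A, B16F0 and B16F10, 1 fall and 1 rise in all 3 lines, 2 members that differed among the lines, and 0 in both directions for the B16 lines against Melan-A and for B16F10 against B16F0, where the edgeR test without the limit gave 25 and 16. Of untreated differences it left 2 lower and 6 higher in B16F0 and 4 and 5 in B16F10 against Melan-A, and 4 and 3 in B16F10 against B16F0.

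The replicate numbers did not pair the libraries (correlation of deviations −0.01, 0.05 and −0.01). With a replicate block 40, 35 and 33 members kept their SX-682 call in Melan-A, B16F0 and B16F10, and Lsm10 was added in B16F0. Untreated B16F10 against untreated B16F0 was less stable. There 33 of 41 calls were kept and 8 were lost, which gave 18 lower and 16 higher with Lsm12 added. Depth was not limiting for the 47 tested members, whose lowest mean log2 CPM was 4.20. Snrpn and U2af1l4 had too few counts to be tested.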
